A study of Daphnia magna with 20 samples.

Results

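The targets described here had lower levels in both groups of Daphnia magna kept with lithium cobalt oxide (LCO) particles than in animals given dissolved ions and in control animals. They were chosen by their measured values. The level of a target was its CPM (estimated counts of a target divided by the library total and scaled to 1000000), and C, L, H and I were the group medians of CPM plus 0.5 in the group each letter stands for, with H for 10 mg/L LCO, L for 1 mg/L LCO, I for ions and C for control. A target was selected on C and I each being at least 1.4 times L and at least 1.4 times H, with I under 2 times C and C at least 2. This left 89 of 26646 targets, and all 89 were among the 16163 that had enough counts to be tested. The rule fixes the direction of 4 contrasts, each LCO dose against control and against ions, so those contrasts are a description. Their values and counts of calls are printed with no p-value for a member, and nothing is read from them.

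Daphnia magna is a freshwater crustacean that filters suspended particles from the water and passes them through its gut, so that a particle and a dissolved ion can reach the animal by different routes. LCO is a sheet-like nanomaterial used as the cathode of rechargeable batteries, and in water it releases lithium and cobalt. An ion group is set beside a particle group in such designs to show what the dissolved metals alone do. The identifiers of the targets could not be paired with gene names, since 0 of 26646 matched the gene table used here, so no function is given for any member and the labelled organism and tissue could not be checked against marker genes.

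The tested animals were wild type, 5 days old at the start and exposed for 48 h in moderately hard water, with food at the start and after 24 h. The 4 groups were 10 mg/L LCO, 1 mg/L LCO, ions (66 µg/L lithium as LiCl with 15 µg/L cobalt as CoCl2, the amounts that the 10 mg/L suspension sets free over 48 h) and control, which had the same water and food with nothing added. Each group had 5 libraries, each from the whole bodies of 10 pooled animals. The labels do not say that pools came from separate vessels, so p-values measure the spread between these pools. In whole-body RNA, fewer cells of a type and less RNA per cell cannot be told apart.

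Total estimated counts ran from 20744445 to 44181066 per library, and the members held 0.222% to 0.726% of them. LCO 10 mg/L replicate 1 carries a treatment tag that reads untreated and was grouped by its title. Its median member level lay 1.09 log2 units below the control median, within the range of the other LCO libraries. The members were chosen with it counted as LCO, so that level is no check on its grouping. On targets chosen without it the median was -1.10, and control replicate 1, left out in the same way, was at -1.06. LCO 1 mg/L replicate 5, ion replicate 5 and control replicate 1 stand apart from their groups, as their member values below show, and were kept in the choice of the members. Control replicate 1 and ion replicate 5 lie against the direction of the rule in many members, and LCO 1 mg/L replicate 5 in a smaller part of them. Results with these libraries left out are therefore a description and no independent check.

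Summed over the members, the lowest, median and highest library were at 2419, 2553 and 2840 CPM in 10 mg/L LCO, at 2222, 2727 and 4151 CPM in 1 mg/L LCO, at 4108, 5651 and 7260 CPM in ions, and at 4581, 5361 and 6953 CPM in control. The sum separates 10 mg/L LCO from the ion and control libraries without overlap, whereas the highest LCO 1 mg/L library reached the lowest ion library. This split follows from the choice of members. The ratio of medians C/H ran from 1.403 to 35.9 over the members with a median of 1.89, and C/L from 1.41 to 35.9 with a median of 1.94. I/H ran from 1.42 to 4.77 with a median of 2.04, and I/L from 1.404 to 23.5 with a median of 2.09. The smallest of the 4 ratios of a member had a median of 1.599 and a highest value of 3.99.

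**Figure D1:**
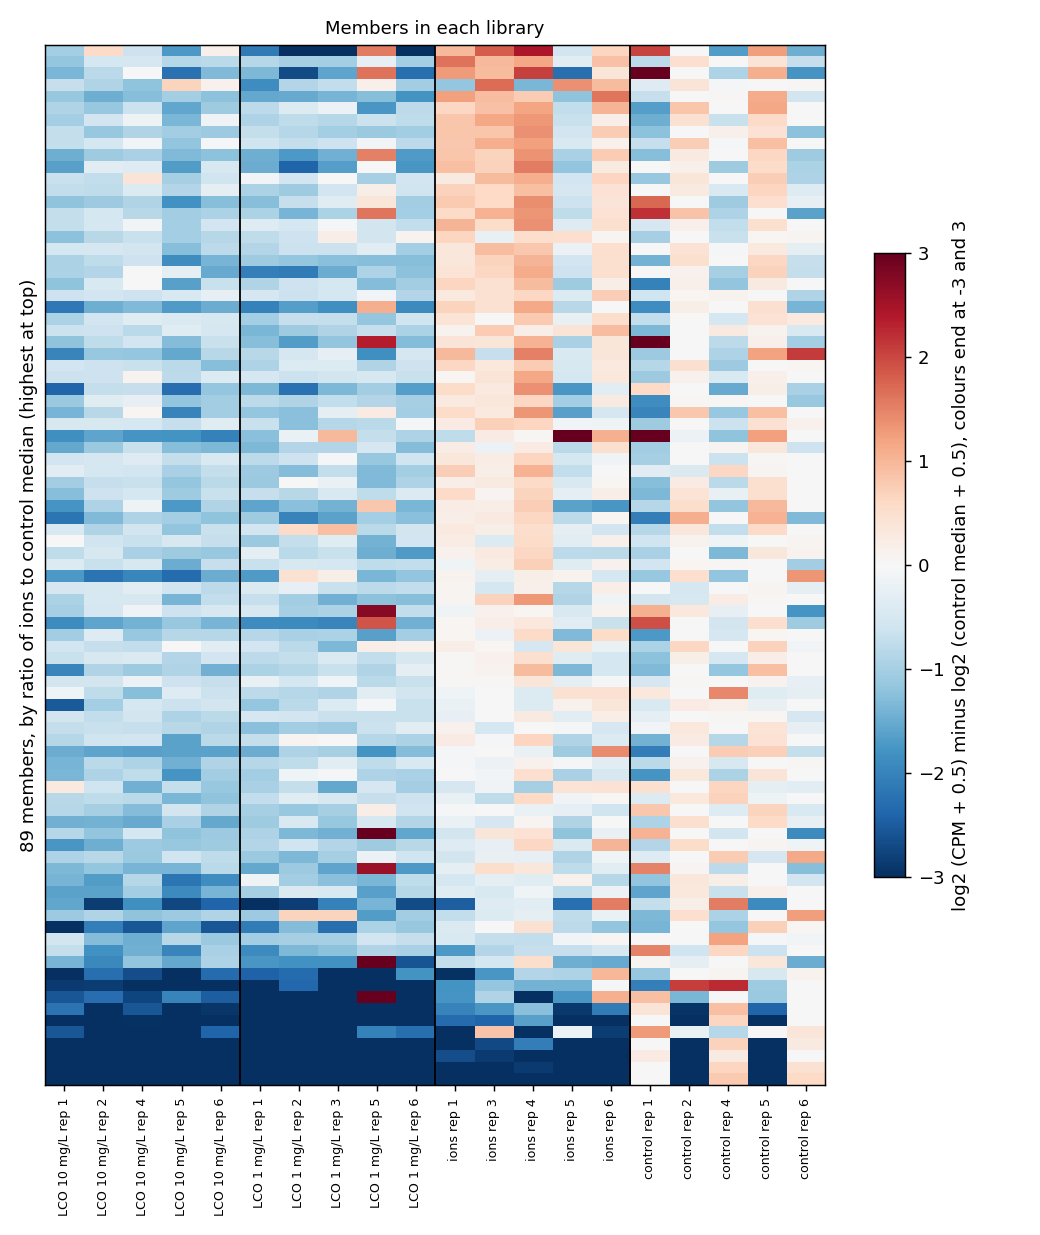
Each row is 1 of the 89 members and each column 1 of the 20 libraries; colour gives the log2 ratio of CPM + 0.5 to the control median, and rows are ordered by the ratio of ions to control. LCO libraries are mostly blue, but LCO 1 mg/L replicate 5 holds red cells for part of the members, and control replicate 1 and ion replicate 5 are blue for many members.

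Just inside the threshold lay KZS17887, with a smallest ratio of 1.403, and KZR98771, with 1.404. KZS17887 had median levels of 9.96 CPM in 10 mg/L LCO, 4.18 in 1 mg/L LCO, 23.3 in ions and 14.2 in control, and it had fractional counts, as described at the end. Just outside were KZS03322, with a smallest ratio of 1.397 and medians of 40.4, 36.7, 56.6 and 69.1 CPM in the same order of groups, and KZS05353, with 1.395 and medians of 324, 360, 796 and 503 CPM. Targets on either side of the threshold had nearly the same ratios. A further 11 targets met all conditions but the limit on ions, and another 11 met all but the minimum control level.

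The most abundant member was KZS19372, with a median of 1140 TPM (a level scaled by effective length) in 10 mg/L LCO, 999 in 1 mg/L LCO, 1863 in ions and 1863 in control. In CPM its libraries were at 1014, 1043, 1026, 934 and 891 in 10 mg/L LCO, at 700, 804, 774, 1055 and 1337 in 1 mg/L LCO, at 1809, 1153, 1682, 1612 and 1167 in ions, and at 1563, 2075, 1657, 2196 and 1390 in control. All LCO libraries lay below all control libraries, and LCO 1 mg/L replicate 6 lay above 2 ion libraries. KZR98771, KZS11657 and KZS08800 followed in control TPM among the 6 members with the highest control CPM, with medians of 190, 90.7 and 162 TPM in 10 mg/L LCO, 336, 243 and 137 TPM in 1 mg/L LCO, 480, 430 and 337 TPM in ions and 626, 592 and 274 TPM in control.

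KZS11657 had 24.8, 79.2, 56.6, 112 and 56.7 CPM in 10 mg/L LCO, 78.7, 136, 69.6, 174 and 154 CPM in 1 mg/L LCO, 251, 334, 461, 195 and 149 CPM in ions, and 127, 337, 151, 553 and 352 CPM in control. The 10 mg/L libraries were all below the ion and control libraries, while LCO 1 mg/L overlapped both. KZS04808 had 92.3, 94.6, 88.5, 128 and 86.4 CPM in 10 mg/L LCO, 119, 183, 114, 181 and 137 CPM in 1 mg/L LCO, 219, 178, 267, 135 and 256 CPM in ions, and 132, 349, 252, 373 and 213 CPM in control. Its 10 mg/L libraries again lay below every ion and control library, and those at 1 mg/L overlapped both.

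KZS08800 had 144, 146, 128, 175 and 160 CPM in 10 mg/L LCO, 87.0, 108, 122, 141 and 117 CPM in 1 mg/L LCO, 244, 385, 260, 296 and 433 CPM in ions, and 88.3, 227, 276, 243 and 166 CPM in control. Every ion library was above every LCO library, and control replicate 1 lay near the lowest of them. KZS06294 had 113, 145, 148, 105 and 135 CPM in 10 mg/L LCO, 109, 232, 206, 93.8 and 123 CPM in 1 mg/L LCO, 271, 285, 352, 172 and 247 CPM in ions, and 96.6, 278, 134, 327 and 235 CPM in control. Here too control replicate 1 was among the lowest libraries, and control replicate 4 and ion replicate 5 lay within the LCO range.

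KZS14190 and KZS13207 were the members for which all 10 LCO libraries lay below all 10 ion and control libraries. Such a separation was seen in 5 of the 16163 tested targets (0.0309%), of which 2 were members, and since the rule used these groups nothing is read from that. KZS14190 had 6.90, 7.02, 3.67, 0.959 and 3.97 CPM in 10 mg/L LCO, 5.76, 10.2, 3.71, 5.18 and 3.97 CPM in 1 mg/L LCO, 15.2, 23.9, 19.8, 19.8 and 51.6 CPM in ions, and 12.5, 230, 254, 25.4 and 53.8 CPM in control. The LCO libraries reached 10.2 CPM at most and the lowest control library was at 12.5, so the gap was narrow beside the spread among controls. KZS13207, named after its values were seen, had 6.06, 6.18, 5.95, 3.43 and 5.03 CPM in 10 mg/L LCO, 4.65, 5.57, 5.62, 7.09 and 4.15 CPM in 1 mg/L LCO, 11.6, 17.7, 16.1, 7.87 and 12.9 CPM in ions, and 9.01, 12.3, 8.67, 11.2 and 7.21 CPM in control. Its highest LCO library, at 7.09 CPM, lay just under its lowest control library.

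**Figure D2:**
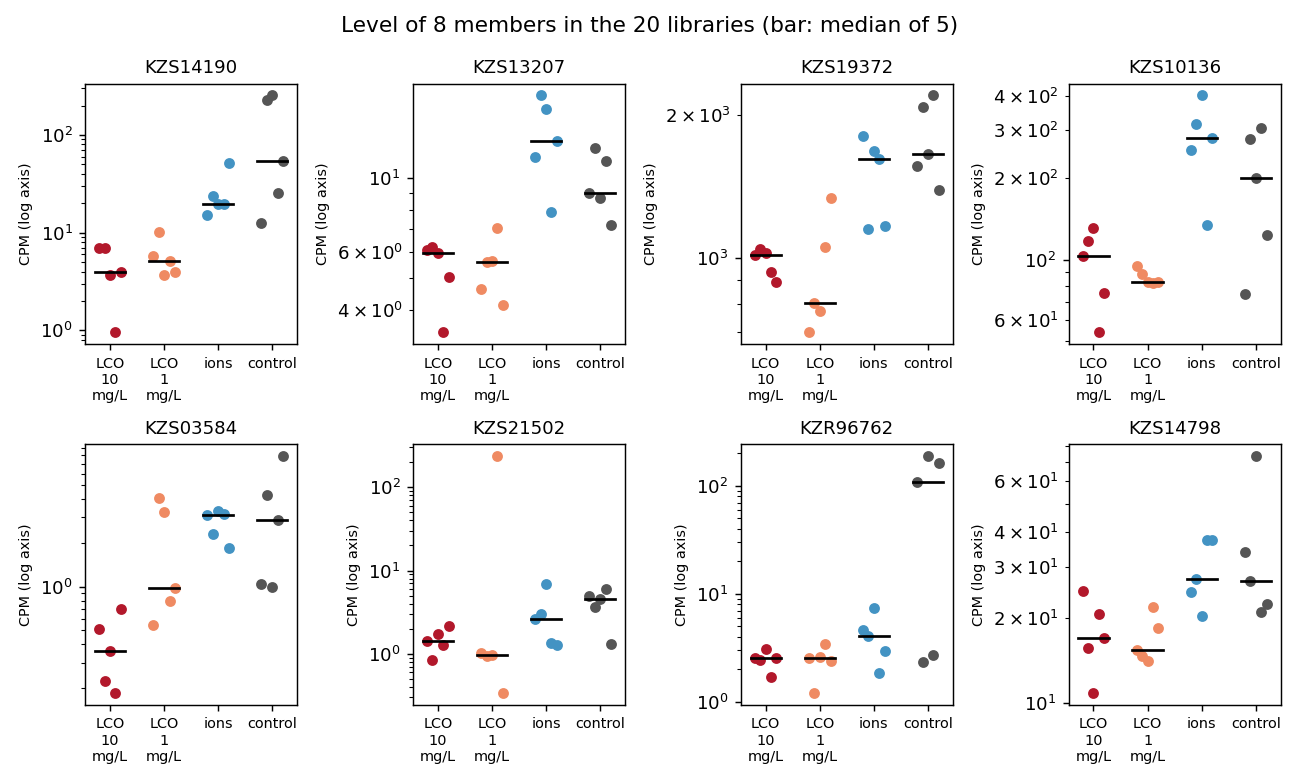
CPM (log axis) of 8 members in each library; points are libraries, bars are medians of 5, and columns are 10 mg/L LCO, 1 mg/L LCO, ions and control. KZS14190 and KZS13207 separate the LCO libraries from the rest, KZS21502 has 1 LCO 1 mg/L library at 236 CPM, and KZR96762 has 3 controls over 100 CPM and 2 under 3.

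The largest smallest ratios were those of KZS12185, KZS14190, KZS22073, KZS08887, KZS21429 and KZS12050, and their libraries varied widely. KZS12185 had 2.97, 0.934, 2.38, 1.05 and 1.46 CPM in 10 mg/L LCO, 0.684, 0.950, 2.02, 3.38 and 1.10 CPM in 1 mg/L LCO, 1.37, 7.32, 7.76, 1.64 and 29.5 CPM in ions, and 5.78, 11.0, 29.4, 2.24 and 9.79 CPM in control. Ion replicates 1 and 5 and control replicate 5 lay within the LCO range, and 2 libraries held a fractional count. KZS08887 had 1.73, 4.80, 3.55, 1.89 and 4.67 CPM in 10 mg/L LCO, 4.28, 4.67, 2.16, 2.31 and 6.91 CPM in 1 mg/L LCO, 2.77, 7.18, 13.4, 12.9 and 50.3 CPM in ions, and 11.1, 25.1, 26.5, 17.7 and 26.9 CPM in control. All controls were above all LCO libraries, and ion replicate 1 was not.

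KZS22073 had 20.8, 33.9, 37.4, 28.5 and 33.2 CPM in 10 mg/L LCO, 22.6, 29.5, 26.0, 200 and 24.7 CPM in 1 mg/L LCO, 151, 128, 207, 52.6 and 93.5 CPM in ions, and 25.6, 106, 94.0, 131 and 35.3 CPM in control. LCO 1 mg/L replicate 5 was nearly as high as the highest ion library. In KZS21429 the same library was at 20.9 CPM, against 0.955 to 1.62 CPM in the other LCO 1 mg/L libraries, and in KZS12050 at 86.9 CPM, against 3.91 to 10.7 CPM. Control replicate 1 was the highest control for both, at 21.6 CPM for KZS21429 and 287 CPM for KZS12050. KZS12050 had fractional counts, so some of its reads were divided with a similar target and its level is uncertain.

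The 2 LCO doses were compared with each other across all tested targets, since the rule puts no condition on that ratio, although the same libraries entered the rule through the other ratios. The medians of both doses were within 1.2-fold for most members, and how many of all tested targets were as close was not counted. Closeness is therefore not read as a trait of the members. The ratio of the LCO 10 mg/L to the LCO 1 mg/L median ran from 0.419 to 7.83 with a median of 1.06, it was within 1.2-fold for 54 members, above 1 for 52 and below 1 for 37. By the quasi-likelihood test of edgeR, with p-values adjusted after Benjamini and Hochberg, 0 members were higher in 10 mg/L LCO, where 1.58% of all tested targets were, and 2 members, KZS03584 and KZS21502, were lower, where 4.7% of all tested targets were. At an unadjusted p under 0.05 there were 16 members in both directions together, where 20.3% of all tested targets were. The DESeq2 Wald test called 0 higher, where 3.04% of all tested targets were, and 3 lower (KZS03584, KZS09801 and KZS04024), where 7.37% were. Limma called 0 in either direction, where 1.14% of all tested targets were higher and 6.05% lower. The median log2 fold change of the members was -0.13, against 0.02 over all tested targets, and its sign rests on LCO 1 mg/L replicate 5, without which it was 0.07. The share of members called was below that of all tested targets in both directions. The rule holds both LCO medians under the same limit, and member values spread more within the LCO groups than those of all tested targets. Nothing is therefore read from the lower share, and a p that misses the threshold does not show that the doses act alike.

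KZS03584 had 0.514, 0.225, 0.362, 0.186 and 0.704 CPM in 10 mg/L LCO, 0.542, 4.09, 3.29, 0.796 and 0.982 CPM in 1 mg/L LCO, 3.14, 2.31, 3.33, 3.15 and 1.86 CPM in ions, and 1.04, 4.26, 0.989, 2.87 and 7.90 CPM in control. LCO 1 mg/L replicates 2 and 3 were within the control range and the 3 others lay near the upper end of the 10 mg/L libraries or just above it. The log2 fold change of 10 mg/L LCO over 1 mg/L LCO was -2.30 (SE 0.63, Benjamini-Hochberg adjusted p = 0.035 by edgeR's quasi-likelihood test). Leaving out LCO 1 mg/L replicate 2 gave -1.82 with an adjusted p of 0.13, and without replicate 3 of that dose it was -2.07 with 0.079. The adjusted p was also above the threshold without LCO 10 mg/L replicate 1 (0.056), 2 (0.094), 4 (0.077) or 5 (0.075), so the call needs most of the libraries.

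KZS21502 had 1.43, 0.837, 1.74, 1.27 and 2.16 CPM in 10 mg/L LCO, 1.03, 0.950, 0.955, 236 and 0.340 CPM in 1 mg/L LCO, 2.61, 3.02, 6.85, 1.33 and 1.28 CPM in ions, and 4.89, 3.67, 4.59, 5.98 and 1.31 CPM in control. Its log2 fold change of 10 mg/L LCO over 1 mg/L LCO was -5.07 (SE 1.45, adjusted p = 0.044 by edgeR's quasi-likelihood test), which rests on LCO 1 mg/L replicate 5. Without that library the log2 fold change was 0.82. The direction of this call therefore depends on 1 library. The call itself was lost without any 1 of the 10 mg/L LCO libraries, ion replicate 1 or control replicate 2, 4 or 5, with adjusted p of 0.051 to 0.11.

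The higher members with the smallest p were KZS17548, KZS21037 and KZS08800, with log2 fold changes of 10 mg/L LCO over 1 mg/L LCO of 0.83 (SE 0.36), 0.51 (SE 0.29) and 0.36 (SE 0.23), and edgeR adjusted p of 0.20, 0.34 and 0.41. KZS17548 had 28.9, 30.1, 55.3, 46.5 and 19.3 CPM in 10 mg/L LCO and 13.2, 12.7, 19.8, 29.1 and 23.6 CPM in 1 mg/L LCO, with ranges that overlap. Both KZS17548 and KZS21037 had fractional counts. KZS09801, the lower member next in p, had 0.844, 1.28, 1.47, 1.06 and 1.24 CPM in 10 mg/L LCO and 1.35, 1.56, 3.11, 1.65 and 2.88 CPM in 1 mg/L LCO. KZS09801 had fractional counts too. Its log2 fold change was -0.86 (SE 0.29) and its adjusted p was 0.093 in the same test.

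With LCO 1 mg/L replicate 5, ion replicate 5 and control replicate 1 left out, edgeR called 6 members between the doses, 1 higher and 5 lower in 10 mg/L LCO, where 4.07% of all tested targets were higher and 7.93% lower. KZS09334 was the higher one, with a log2 fold change of 2.91 and an adjusted p of 0.012. KZS09334, named after its values were seen, had 60.7, 185, 80.7, 37.1 and 137 CPM in 10 mg/L LCO, against 28.3, 7.47, 9.87, 369 and 6.31 CPM in 1 mg/L LCO. The 5 lower ones were KZS13713 (log2 fold change -3.14), KZS03584 (-2.51), KZS09801 (-0.94), KZR98771 (-0.86) and KZS03587 (-0.54).

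**Figure D3:**
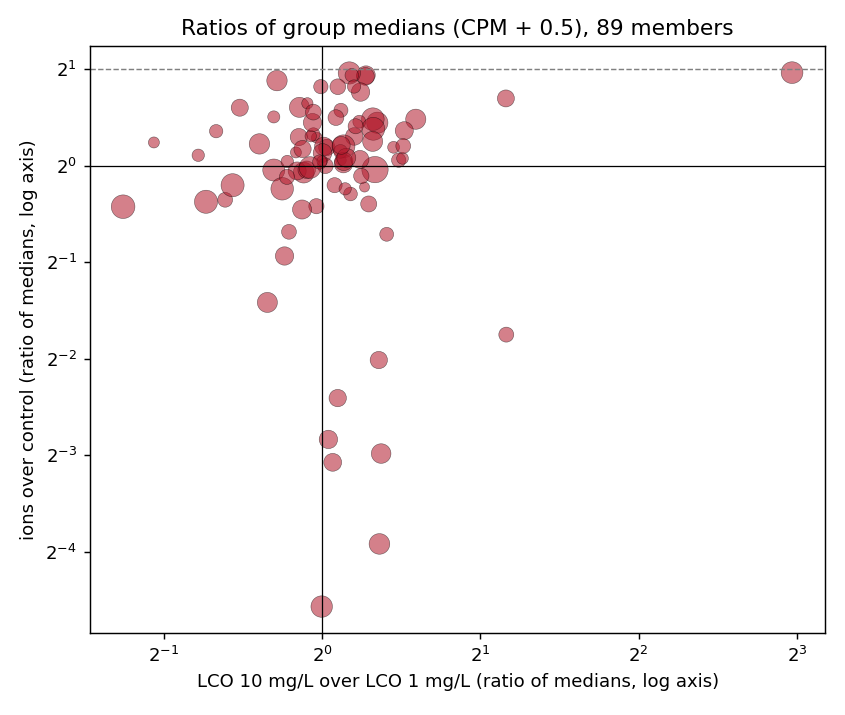
Each point is a member, with the ratio of LCO 10 mg/L to LCO 1 mg/L medians across and of ions to control medians upward (log axes; point size grows with the control median, the dashed line is the limit of 2 on ions over control). The ratio of the doses is within 1.2-fold for 54 members and that of ions to control for 38, and a tail of members with ions under 0.5 of control runs downward.

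In the contrasts that chose the members, edgeR's quasi-likelihood test called 49 members lower in 10 mg/L LCO than in control, where 16.7% of all tested targets were lower, and 30 lower in 1 mg/L LCO than in control, where 3.69% were. Against ions, 55 members were lower in 10 mg/L LCO, where 13.8% of all tested targets were, and 49 were lower in 1 mg/L LCO, where 20.8% were. The 1 member higher in 1 mg/L LCO than in ions, where 20.1% of all tested targets were, was KZS21502. Nothing is read from these counts, since the rule used the contrasts. The median log2 fold change of the members was -1.11 for 10 mg/L LCO and -0.89 for 1 mg/L LCO over control, and -1.20 and -1.04 over ions. These contrasts share the LCO, control and ion libraries.

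KZS10136 and KZS13965 are shown as members with little spread at 1 mg/L LCO, and were named after their values were seen. KZS10136 had 103, 117, 130, 54.1 and 75.3 CPM in 10 mg/L LCO, 94.7, 88.7, 82.7, 81.7 and 82.4 CPM in 1 mg/L LCO, 253, 317, 401, 134 and 279 CPM in ions, and 74.8, 277, 199, 305 and 123 CPM in control. Control replicates 1 and 6 lay within the LCO range, and the ion libraries were all above it. KZS13965 had 84.9, 74.7, 85.3, 65.1 and 71.0 CPM in 10 mg/L LCO, 88.0, 83.0, 78.8, 78.3 and 78.1 CPM in 1 mg/L LCO, 105, 123, 151, 98.1 and 142 CPM in ions, and 102, 125, 128, 131 and 87.7 CPM in control. Only control replicate 6 fell within the LCO range, just under LCO 1 mg/L replicate 1.

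The rule limits ions against control from above, at 2, so this contrast is also given as a description. The ratio of the ion to the control median ran from 0.042 to 1.95 with a median of 1.10. It was above 1 for 57 members, below 1 for 32, within 1.2-fold for 38, and under 0.5 for 9. For these 9 the ion median was itself far below the control median, so "lowered by the particles and not by the ions" does not describe their medians. They are members because the LCO medians were lower still. Single libraries did not all follow the medians. For KZR96762 the ion libraries, at 1.85 to 7.38 CPM, lay around controls 2 and 5, at 2.32 and 2.71 CPM. For KZS13303 ion replicates 1, 4 and 6, at 1.05, 0.737 and 3.14 CPM, lay within the LCO range of 0.434 to 5.91 CPM. The edgeR test called 5 members higher in ions than in control, where 25.4% of all tested targets were, and 10 lower, where 24.7% were. The 5 were KZS01122, KZS18933, KZS16959, KZS12861 and KZS08800. Their number moved with single libraries, to 1 without control replicate 6, 2 without ion replicate 4, 3 without control replicate 1 or ion replicate 1 or 6, and 10 without ion replicate 5. It was 13 without the 3 libraries that stand apart and 0 in a fit of ions and control alone, while 10 lower members became 9 and 7. In the fit of ions and control alone, 3027 of 15304 tested targets were higher and 3398 lower. Shares over all tested targets are not set beside the other counts, so nothing is read from these changes. KZS01122 had 9.69, 9.84, 14.5, 3.35 and 9.28 CPM in ions and 1.97, 5.27, 5.86, 7.24 and 1.97 CPM in control, and the ranges overlap.

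Of the 10 members called lower in ions than in control, 6 had 2 levels among the control libraries: KZR97327, KZS00775, KZS10194, KZR99837, KZR96762 and KZR99631. Controls 1, 4 and 6 were each at least 4-fold above controls 2 and 5 in these members, a grouping noticed in the values. The same 2 levels were found in 36 of all tested targets (0.223%), against 6.74% of the members, which the rule chose partly on a high control median. KZR96762 had 2.53, 2.45, 3.12, 1.70 and 2.54 CPM in 10 mg/L LCO, 2.54, 1.21, 2.62, 3.46 and 2.42 CPM in 1 mg/L LCO, 4.62, 4.09, 7.38, 1.85 and 2.95 CPM in ions, and 108, 2.32, 188, 2.71 and 164 CPM in control. Controls 2 and 5 were at the level of the LCO libraries. KZR99631 had 71.2, 111 and 98.7 CPM in controls 1, 4 and 6, against 2.92 and 3.38 CPM in controls 2 and 5, with 1.45 to 3.57 CPM in the LCO libraries and 2.22 to 9.35 CPM in ions. KZS00775 had 16.5, 26.1 and 16.5 CPM in the first 3 and 1.27 and 1.57 CPM in the other 2, with LCO libraries at 0.766 to 1.67 CPM. A median of 5 with 3 high libraries takes the high level, so for these members the control median is that of 3 libraries and the difference is not shared by the other 2. Their log2 fold changes of 10 mg/L LCO over control ran from -2.97 for KZR97327 to -5.33 for KZR96762, and those of ions over control from -1.94 to -4.53. KZR99837 had fractional counts.

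The libraries were then read one at a time against a line drawn for each member at 1.4 times the higher of its LCO medians. The rule itself puts the control and ion medians at or above this line, and the LCO medians lie below it. At least 3 of 5 control and 3 of 5 ion libraries therefore had to reach it for each member. The difference between groups in these counts follows from that choice. Of the 89 members, 10 mg/L LCO had 7, 3, 10, 3 and 4 at or above the line, 1 mg/L LCO had 2, 8, 11, 25 and 5, ions had 76, 78, 80, 25 and 70, and control had 35, 80, 50, 80 and 53. Ion replicate 5 stood far under the rest of its group. The controls fell apart into replicates 1, 4 and 6, at 35 to 53, and replicates 2 and 5, at 80 each. LCO 1 mg/L replicate 5 stood above the rest of its group. Control replicate 1 was the lowest control for 46 members and at or below the higher LCO median for 40. Ion replicate 5 was the lowest ion library for 58 members and at or below that median for 27, and ion replicate 4 was the highest ion library for 57.

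Seen by member, 66 had only the 3 control libraries above the line that the rule requires, 15 had 4 and 8 had all 5. For ions, 34 members had 3 libraries above the line, 48 had 4 and 7 had 5. KZS14190 was the single member with all 10 ion and control libraries above it. The control medians thus rest on 3 of 5 libraries for most members. Within-group SDs of log2 CPM had a median over members of 0.322 in 10 mg/L LCO, 0.421 in 1 mg/L LCO, 0.613 in ions and 0.743 in control, against 0.201, 0.206, 0.284 and 0.253 over all tested targets in the same groups. The members were chosen on the medians of these same libraries, so the wider spread is a description.

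A library that takes part in the choice of members has a level that the choice pulls in the direction of the rule. To take the library itself out of the choice, each library was left out in turn, targets were chosen by the same rule from the other 19, and the median log2 ratio of the left-out library to the control median was taken over the targets so chosen. 10 mg/L LCO gave -1.10, -0.77, -0.68, -1.14 and -0.90 for replicates 1, 2, 4, 5 and 6. 1 mg/L LCO gave -0.99, -0.81, -0.67, -0.65 and -1.02 for replicates 1, 2, 3, 5 and 6. All 10 LCO libraries lay below the control median. That median took part in the choice, which asks for a high control level, so a ratio below 0 is not by itself a difference from control.

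Left-out ion libraries gave 0.07, 0.01, 0.52, -0.65 and 0.01 for replicates 1, 3, 4, 5 and 6, and left-out controls gave -1.06, -0.06, -0.65, 0.10 and -0.57 for replicates 1, 2, 4, 5 and 6. Control replicate 1 was as low as the LCO libraries, and control replicates 4 and 6 and ion replicate 5 lay at or near their upper end. The other 4 ion libraries and control replicates 2 and 5 were above all 10 LCO libraries. Each library was read on a different set of targets, and for a left-out control the median in the ratio was that of the other 4 controls. Over all targets with a control median of at least 2, which were not selected on a high control level against LCO, the same medians lay between -0.08 and 0.08.

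**Figure D4:**
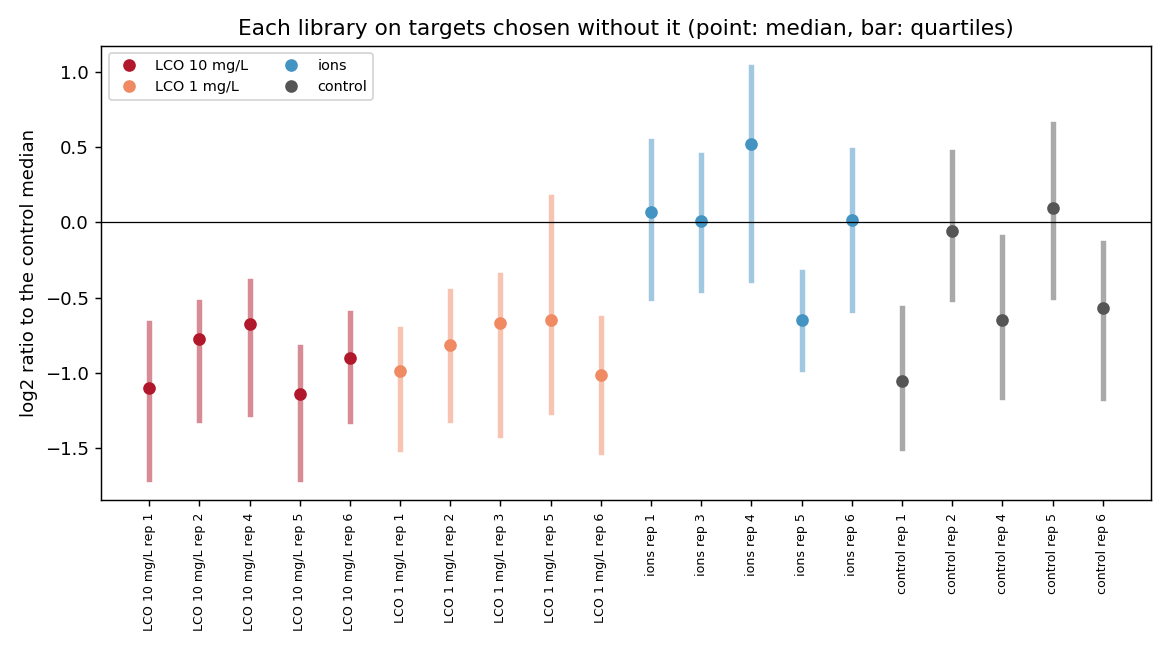
For each library, the median (point) and quartiles (bar) of the log2 ratio to the control median over targets chosen without that library. The LCO libraries lie between -0.65 and -1.14; ion replicate 5 and control replicates 1, 4 and 6 lie at -0.57 to -1.06, and the other ion and control libraries at -0.06 to 0.52.

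Membership moved with single libraries. In the 20 choices that left out 1 library each, 30 members were kept every time, 66 were kept in at least 16, and the fewest was 12, for KZS09334 and KZS13303. Without control replicate 5, 59 targets passed the rule. KZS11657 was kept in all 20, KZS19372 in 18 and KZR98771 in 15. Without the 3 libraries that stand apart, 122 targets passed, of which 66 were among the 89. Since these libraries lie against the direction of the rule in part of the members, nothing is read from the larger number.

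For 13 members (14.6%), LCO 1 mg/L replicate 5 exceeded each of the other 4 libraries of its group by 4-fold or more, as it did for 289 of all tested targets (1.79%). Among these 13, control replicate 1 was the highest control in 9, and the share over all tested targets was not counted. Over all tested targets, deviations of these 2 libraries from their group means had r = 0.67, the highest for libraries of different groups. A link between the 2 libraries is therefore not read as a trait of the members. KZS21502, KZS21429, KZS22073 and KZS12050 are given above. KZS21327 had 0.697, 0.966, 0.543, 1.27 and 0.779 CPM in 10 mg/L LCO, 0.0570, 0.238, 0.0707, 88.1 and 0 CPM in 1 mg/L LCO, 1.57, 3.27, 0.0964, 1.61 and 14.3 CPM in ions, and 12.9, 2.25, 6.67, 2.79 and 6.59 CPM in control. The median of the LCO 1 mg/L group does not see such a library, whereas a mean does. With group means in place of medians 100 targets passed the rule and 49 of them were members. Control replicate 1 exceeded its group by as much in 2 members, KZS12050 and KZS17888, and in 1.52% of all tested targets. Ion replicate 5 did so in 1 member, KZS13713, and in 0.186% of all tested targets. The part of these libraries in the choice of the other members was not tested beyond leaving them out.

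Members lay next to each other in the numbering of the identifiers. For 13 members (14.6%) the identifier 1 step away was also a member, where 121 of 16074 other tested targets (0.753%) had a member 1 step away. Within 5 steps it was 18 members (20.2%) against 590 other tested targets (3.67%). What the numbering stands for is not given in the sources used here, so position in the genome is not read from it. The 18 members formed 8 groups: KZS03584 and KZS03587, KZS05667 and KZS05668, KZS05925, KZS05927 and KZS05928, KZS08800 and KZS08804, KZS13207 and KZS13208, KZS14796 to KZS14798, KZS17887 and KZS17888, and KZS21502 and KZS21503.

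KZS14796, KZS14797 and KZS14798 formed the longest consecutive run. KZS14796 had 23.6, 13.8, 12.4, 19.4 and 15.9 CPM in 10 mg/L LCO, 16.6, 17.3, 17.3, 23.1 and 21.6 CPM in 1 mg/L LCO, 25.4, 21.1, 20.7, 33.2 and 35.7 CPM in ions, and 34.9, 35.1, 81.7, 34.1 and 33.1 CPM in control. KZS14798 had 24.7, 15.6, 10.9, 20.6 and 17.0 CPM in 10 mg/L LCO, 15.4, 14.7, 14.1, 21.7 and 18.4 CPM in 1 mg/L LCO, 24.6, 27.4, 20.3, 37.5 and 37.5 CPM in ions, and 33.9, 27.0, 73.6, 20.8 and 22.3 CPM in control. Both were highest in control replicate 4. KZS14797 was lower, at 2.47 to 9.43 CPM in 10 mg/L LCO, 2.30 to 5.22 CPM in 1 mg/L LCO, 3.52 to 10.4 CPM in ions and 5.90 to 12.0 CPM in control, and it too was highest in control replicate 4. KZS14798 had fractional counts.

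KZS05667 had 28.4, 39.1, 43.8, 21.6 and 36.0 CPM in 10 mg/L LCO, 35.8, 67.7, 71.5, 39.0 and 37.6 CPM in 1 mg/L LCO, 74.7, 70.9, 105, 37.6 and 53.6 CPM in ions, and 21.6, 93.5, 38.5, 97.9 and 74.5 CPM in control. KZS05668 had 9.36, 11.4, 11.6, 5.41 and 9.70 CPM in 10 mg/L LCO, 10.4, 18.3, 17.3, 9.40 and 8.84 CPM in 1 mg/L LCO, 20.9, 16.9, 27.5, 9.17 and 13.0 CPM in ions, and 6.19, 20.6, 9.49, 23.9 and 17.4 CPM in control. The 2 followed each other from library to library. Control replicates 1 and 4 and ion replicates 3, 5 and 6 lay within the LCO range for both, and control replicate 6 did for KZS05668. The deviations of KZS05667 and KZS05668 from the group means over the 20 libraries had r = 0.98. Over the 12 pairs within the 8 groups r ran from -0.63 to 0.98 with a median of 0.66, against 0.12 for pairs of consecutive tested targets. KZS05925 went against KZS05927 (-0.56) and KZS05928 (-0.63). Among the 121 tested neighbours that are no members, 8.26% had a smallest ratio of at least 1.2, against 1.56% of all tested targets that are no members.

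The members were also compared with each other over the 20 libraries. Without the 12 pairs just described, the deviations of 3904 pairs of members from their group means had a median r of 0.17, and 23.0% of pairs had r over 0.5, while between members and other tested targets the median was -0.02 and 10.0% were over 0.5. All of these share the same 20 libraries and their depths, and the members share a rule. The most alike pair was KZR96762 with KZR99631, at r = 0.99, followed by KZS05667 with KZS05668. KZR96762 and KZR99631 are both among the 6 members with 2 levels among the controls, so their r includes that split.

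In length and level the members were close to the tested targets. Their length had a median of 1730 bases (quartiles 966 and 3739, from 240 to 18760), against 1866 bases over all tested targets. The median control level was 11.3 TPM, against 9.82 TPM over all tested targets, and 47 members were at 10 TPM or more in control and 4 under 1 TPM. Fractional counts, which arise where a read is divided among similar targets, were held by 19 members (21.3%) and by 24.2% of all tested targets.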

How the data were processed

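The 20 libraries came from RNA of whole animals, 5 per group, with groups taken from the sample titles. Estimated counts of 26646 targets were deposited per library, per the file headers, with TPM values, target length and effective length beside them; the counting program and annotation were not stated in the sources at hand. The members, the lists and the rules were chosen with earlier results of these data known.

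Members were found from CPM of the deposited estimated counts, as stated in the report. The rounded counts went into edgeR 4.0.16 (R 4.3.3). There filterByExpr (minimum count 10, minimum total count 15) left 16163 targets. After TMM scaling, 1 quasi-likelihood model was fitted to all 20 libraries with group as the sole term. Tests were two-sided, with Benjamini-Hochberg adjustment over all tested targets and a threshold of 0.05. SE is the absolute log2 fold change over the root of F. The fit was tested on simulated counts. TPM gave levels per length. No pair of libraries was identical, and replicates of a group differed with a chi-square over its degrees of freedom of at least 21.3. With these totals counting error is small beside the spread of pools except in targets at a few CPM. Per-library values are printed in order of replicate number: 1, 2, 4, 5 and 6 for LCO at 10 mg/L, 1, 2, 3, 5 and 6 for LCO at 1 mg/L, 1, 3, 4, 5 and 6 for ions, and 1, 2, 4, 5 and 6 for control.

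Named members were the 6 with the highest control median, the 6 with the largest smallest ratio, the 3 smallest p in each direction between the doses, the 2 nearest the threshold on each side, the 2 longest runs of identifiers, and the 2 with the farthest library; others named were chosen after their values were seen. Gene lists by product name could not be used without names. Alternatives were DESeq2 1.42.0 size factors, the DESeq2 Wald test, no filter, a minimum mean CPM of 5, a fit of the 2 groups alone, a block for the replicate number, log2(TPM + 1) in limma 3.58.1, leaving out each library, leaving out 3 libraries, and other forms of the rule. Figures were drawn with matplotlib 3.10.9.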

Additional observations from a re-analysis of the deposited data

Results flagged for a closer look

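In 96 groups of 5 libraries, over the 24 members named by the rule, 15 had a highest or lowest library whose gap to the next took more than 0.71 of the group's range. For normally distributed values chance gives about 1 in 20. The CPM values were not put on a log scale and every flagged library was above its group, so that rate need not hold here. The named members were themselves picked by measured values, and KZS21502 and KZS21327 for holding the farthest library, so their flags for LCO 1 mg/L replicate 5 were fixed by that choice. The ratios below are that gap over the range. LCO 1 mg/L replicate 5 was above its group in KZS21502 (0.997), KZS21327 (0.997), KZS21429 (0.967), KZS22073 (0.961), KZS12050 (0.919) and KZS17887 (0.794). Ion replicate 6 was above its group in KZS08887 (0.777), KZS21327 (0.776), KZS12185 (0.772) and KZS14190 (0.76). Control replicate 4 was above its group in KZS14796 (0.96) and KZS14798 (0.752). Control replicate 1 was above its group in KZS12050 (0.815) and KZS21429 (0.72). LCO 10 mg/L replicate 5 was above its group in KZS04808 (0.802). Between the LCO doses, edgeR's quasi-likelihood test called KZS21502, with a log2 fold change of -5.07 for LCO at 10 mg/L over LCO at 1 mg/L, and KZS03584, with -2.3. Of all tested targets 1.58% were called higher and 4.7% lower. The call of KZS21502 rests on LCO 1 mg/L replicate 5, without which its log2 fold change was 0.82. That of KZS03584 was -1.82 and no longer called without LCO 1 mg/L replicate 2.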

How the results depend on the processing

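Between the LCO doses, the main fit called 255 of 16163 tested targets higher and 760 lower. These were 170 and 648 of 23391 without a filter, and 392 and 647 of 10755 with a mean CPM of at least 5. With only the 2 groups they were 510 and 1242 of 15668, with limma 185 and 978 of 16163. Without the 3 libraries that stand apart they were 660 and 1287 of 16230, and with a replicate block 172 and 421 of 16163. Of the members, 2 were called between the doses in the main fit. Without a filter it was 1, with a mean CPM of at least 5 it was 1 of 62 tested, with only the 2 groups 4, with limma 0, without the 3 libraries that stand apart 6 and with 1 library left out 0 to 3 (0 without 10 mg/L replicate 1, 2, 4 or 5; 1 without its replicate 6, 1 mg/L replicate 2 or 3, ion replicate 1 or control replicate 2, 4 or 5). Replicate numbers did not pair the libraries (median r -0.07 over 25 same-numbered pairs, 9 over 0.1); with the number as a replicate block 0 members were called between the doses, and 16 in LCO at 1 mg/L against control. That contrast gave 30 with no block, 19 with limma, 55 without the 3 libraries and 15 to 43 with 1 library left out (15 when replicate 1 of the lower dose was dropped, 18 when its replicate 3 was). Over all tested targets, 597 of 16163 were lower in it with no block, 304 with limma and 260 with the block. Without LCO 1 mg/L replicate 1 it was 199 of 16311. LCO at 10 mg/L against ions gave 32 to 60, against 55 (34 without LCO 10 mg/L replicate 5, 32 without ion replicate 4). Of all tested targets, 2224 of 16163 were lower in it, and 913 of 16313 without LCO 10 mg/L replicate 5. Ions against control gave 7 with only these 2 groups, against 15. Over all tested targets, that 2-group fit called 3027 of 15304 higher and 3398 lower, against 4112 and 3988 of 16163. Calls over all tested targets thus moved too, and changes in the counts of members are not read as a trait of the members. The rule passed 140 targets at a ratio of 1.3, 43 at 1.6, and 59 to 127 with 1 library left out. KZS21502 between the doses ran from -5.39 to 0.82 with 1 library left out; it turned to 0.82 without LCO 1 mg/L replicate 5 and to 0.82 without the 3 libraries. On TMM-scaled CPM 112 targets passed (87 members), on TPM 110 (70), and with a pseudocount of 0.1 97 (84). The 3 libraries that stand apart lie against the direction of the rule in part of the members, so counts without them are a description. Causes were not tested beyond what each alternative leaves out. Depth limits targets at a few CPM.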
